A study of Mus musculus with 30 samples.

Results

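The clustered protocadherins are a family of cadherin-related adhesion proteins encoded by 3 neighbouring gene clusters, alpha, beta and gamma. Their levels were measured in 28 mouse cortical tumours and in 2 samples of normal mouse cortex. Members were the genes whose symbols begin with Pcdha, Pcdhb or Pcdhg followed by an isoform name, 59 of the 24421 genes in the deposited tables. They comprise 15 alpha, 22 beta and 22 gamma genes. The gamma genes include Pcdhgb8, which is annotated as a transcribed pseudogene and is counted throughout. On chromosome 18 of mm10 the alpha genes span 36930285 to 37188897, the beta genes 37264998 to 37521419 and the gamma genes 37661775 to 37841873, all on the plus strand. One alpha entry, Pcdha7-g, is a read-through gene that runs on into the gamma cluster and was left out of the alpha span.

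Bulk RNA had been taken at postnatal day 70 from tumours labelled glioblastoma and from cortex labelled wild type. The 9 groups were normal cortex (2 libraries), tumours given the fluorescent control protein mCherry (3), tumours given wild-type EGFR, the epidermal growth factor receptor (3), and tumours given an EGFR form with a single amino acid change: A289I (5), A289V (4), R108G (3), R108K (4), R222C (3) or T263P (3). The promoter that drives the receptor, the way the tumours were started and the mouse strain are not given in the sources used here. The series text speaks of several mice per variant without tying libraries to mice, so the p-values measure the spread between these libraries.

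In the alpha and gamma clusters each gene has its own promoter and large first exon, which is spliced to constant exons shared by the whole cluster, while each beta gene is a single exon. Promoters are chosen by methylation-sensitive binding of CTCF and looping by cohesin, and single neurons are known for using a small, variable subset of the alpha, beta, gamma-A and gamma-B promoters. The C-type members, Pcdhac1 and Pcdhac2 at the end of the alpha cluster and Pcdhgc3, Pcdhgc4 and Pcdhgc5 at the end of the gamma cluster, are used more evenly among cells. The proteins bind like to like between cells and are known for self-avoidance of dendrites and axons and for neuron survival.

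Values are deposited normalised counts divided by 1 constant, called RPM here, and differences are on the scale of log2(RPM + 1) with a limma test adjusted by Benjamini and Hochberg over 15824 genes. A gene passed, and is said to have risen or fallen, at an adjusted p under 0.05. Libraries held 2784129 to 24475215 reads, so that 1 read was worth 0.0387 to 0.383 RPM. Egfr was 12.02 ± 0.995 RPM in cortex (SD, n = 2), 29.4 ± 6.78 in mCherry tumours (n = 3) and 17.5 to 2790 in the 25 tumours given a receptor. Of 25 neuron markers 24 fell in the tumours against cortex, where 24.5% of all genes tested fell and 22.9% rose. Their summed level was 20837 and 21590 RPM in cortex and 517 to 16416 RPM in the tumours, with Snap25, a synaptic vesicle fusion protein, at 4.34 RPM or more in every library. A289V libraries 1 and 2 had the highest neuron list means of all tumours, 8.16 and 8.42 in log2(RPM + 1) against 8.78 and 8.81 in cortex and 2.40 to 7.16 in the other 26 tumours. Of 14 oligodendrocyte precursor markers 13 rose in the tumours, as did 18 of 18 cell cycle genes and 6 of 9 T and NK cell markers. Of 15 microglia and macrophage markers 10 rose and 1 fell. Of 16 myelinating oligodendrocyte markers 10 fell, and of 14 astrocyte markers 5 fell and 1 rose. The part of these cell types in the members' differences was not tested.

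The clustered protocadherins were measured unevenly. The filter of at least 1 RPM in at least 3 libraries kept 54 members: 11 alpha genes, 2 of them C-type, 21 beta genes and all 22 gamma genes. Pcdha4, Pcdha6 and Pcdha7 were listed at 0 in all 30 libraries, and Pcdha7-g and Pcdhb1 held 13 and 174 reads in all. Gm37013, a read-through gene annotated across alpha genes and into the gamma cluster, was at 0.228 RPM or less in every library. How reads that fit several genes were counted is not given in the sources used here, and reads from the constant exons of a cluster cannot be assigned to 1 member. Some 50-base windows of the first exons occurred in another member. Among alpha genes outside the C-types their share was 10.07% (Pcdha9) to 23.43% (Pcdha7). It was 15.1% for Pcdha10, 18.36% for Pcdha11 and 13.31% for Pcdha12. In gamma-B genes it reached 17.9% (Pcdhgb2) and in beta genes 11.99% (Pcdhb12). For the 5 C-type first exons it was 0%.

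**Figure D1:**
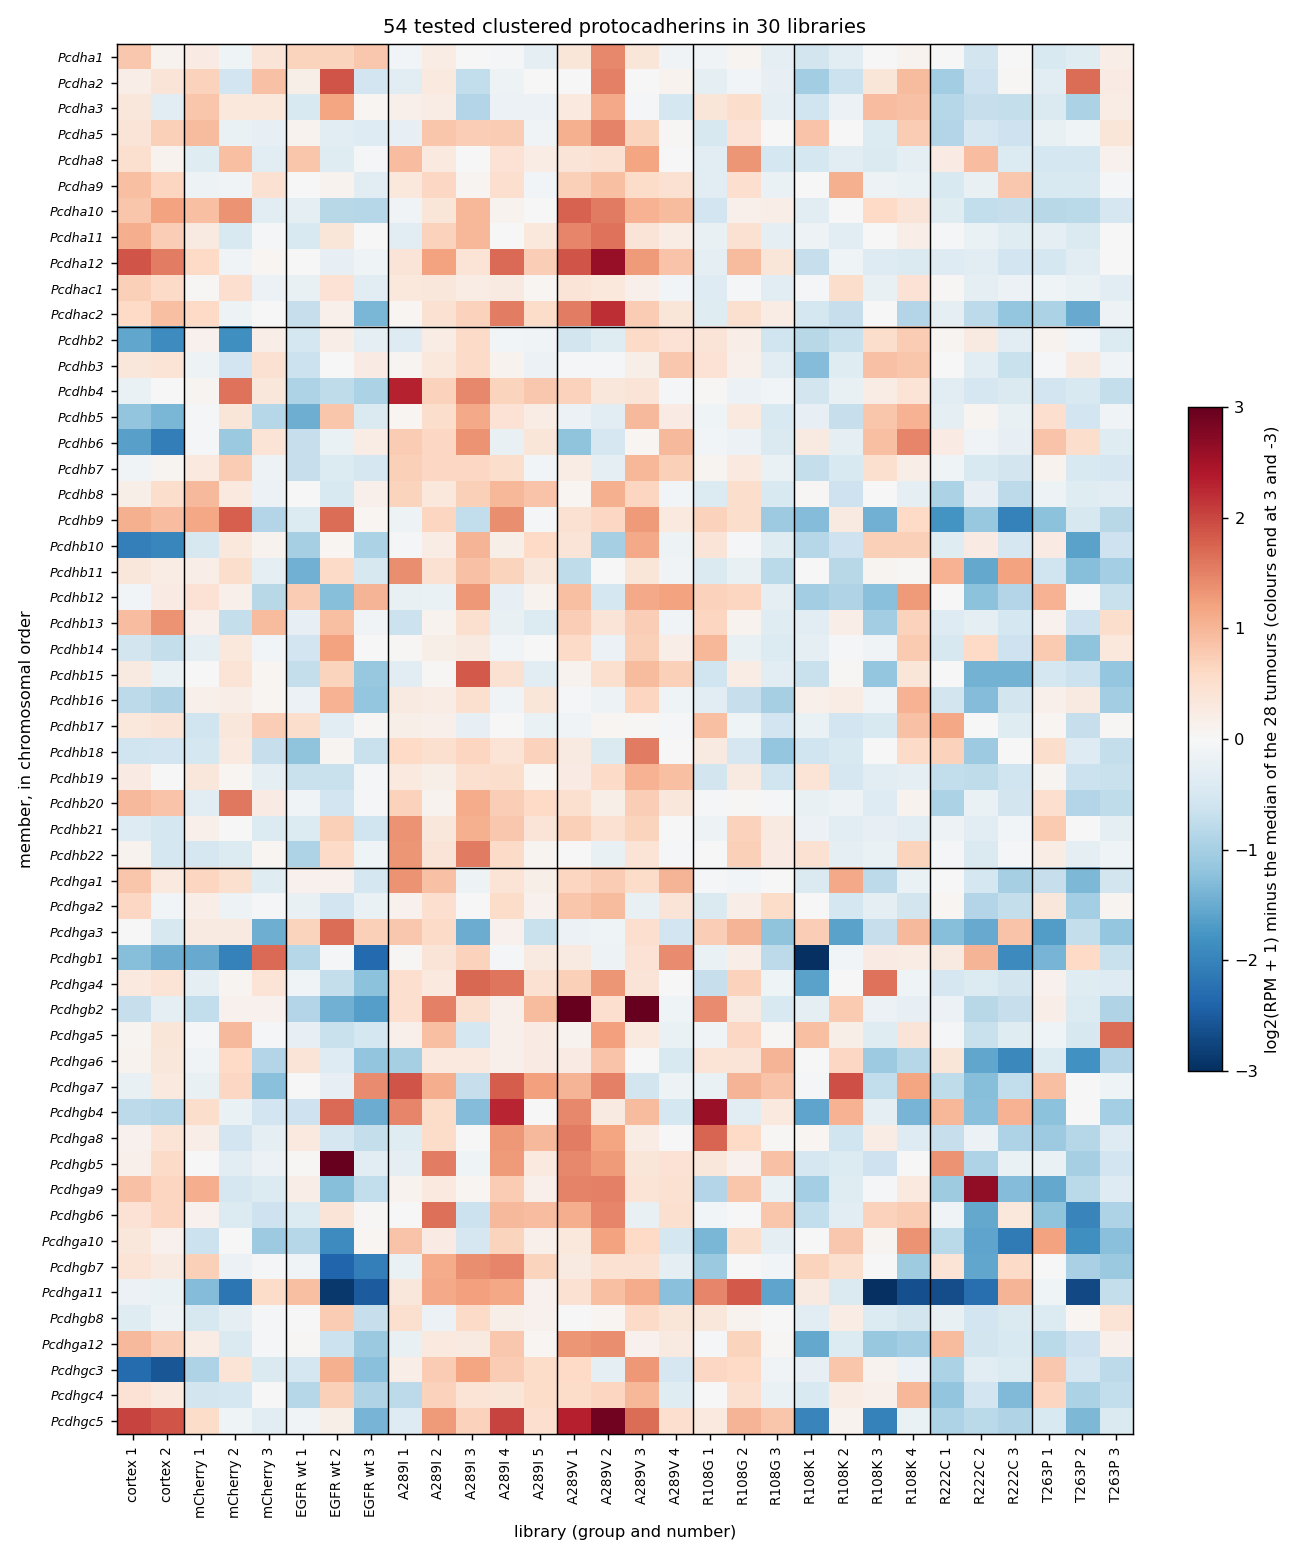
Levels of the 54 tested clustered protocadherins (rows, chromosomal order; lines separate the alpha, beta and gamma clusters) in 30 libraries (columns; lines separate the 9 groups), as log2(RPM + 1) minus the median of the 28 tumours. Both cortex libraries lie below all 28 tumours at Pcdhgc3, Pcdhb6 and Pcdhb10 and above them at Pcdhac1, and single tumours stand out at gamma-A and gamma-B genes such as Pcdhgb5 in EGFR wild-type library 2.

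The member of highest level was a C-type gene in cortex and in tumours, but not the same one. Per kilobase of first exon, Pcdhgc5 came first in cortex at 21.3 RPM per kb and Pcdhgc3 second at 11.5, whereas over the tumours Pcdhgc3 averaged 75.9 and Pcdhgc5 8.36. In cortex Pcdhgc3 made up 9.302% and 8.155% of the summed RPM of all members. Over the tumours its share was 21.7% at the lowest, 37.4% at the median and 53.6% at the highest, above both cortex libraries in every tumour.

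Pcdhgc3, which is known for promoting dendrite branching in cortical neurons, was 32.3 and 26.9 RPM in the 2 cortex libraries. It was 85.7, 218 and 121 RPM in the mCherry tumours and 114, 346 and 68.1 in the EGFR wild-type tumours. The A289I tumours had 189, 278, 371, 280 and 240 RPM, and the A289V tumours 248, 135, 406 and 115. All 28 tumours lay above both cortex libraries, and the groups did not overlap. The R108G tumours had 253, 247 and 153 RPM, the R108K tumours 138, 291, 176 and 146. R222C tumours had 83.9, 132 and 123 RPM and T263P tumours 289.4, 116 and 94.0. Pcdhgc3 did not pass the test for any difference among the 8 tumour groups described below. Against cortex Pcdhgc3 rose by 2.46 ± 0.45 (log2 difference and SE, limma adjusted p = 0.000113) over the 8 tumour groups, and by 2.12 ± 0.57 (adjusted p = 0.00503) in mCherry tumours alone. In a bulk sample, more cells of a type and more RNA per cell cannot be told apart.

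Pcdhgc5, whose protein is known to bind GABA-A receptors at synapses, went the other way. It was 58.3 and 53.3 RPM in cortex and 20.4, 12.3 and 10.5 RPM in mCherry tumours. In EGFR wild-type tumours it was 12.5, 15.6 and 4.599 RPM, and in A289I tumours 10.2, 34.7, 22.8, 58.4 and 19.8. A289V libraries 1 to 4 had 72.2, 107, 45.8 and 19.7 RPM. A289V libraries 1 and 2 and A289I library 4 thus exceeded both cortex libraries, and 25 lay below both. These same 3 tumours had the highest neuron list means of the 28, and the part of neuronal RNA in the difference was not tested beyond the fit with the neuron list described below. R108G tumours had 16.9, 28.5 and 25 RPM, R108K tumours 2.68, 14.8, 2.57 and 11.7. The R222C tumours, at 6.75, 7.31 and 6.84 RPM, and the T263P tumours, at 9.68, 4.78 and 9.78 RPM, were low throughout. Pcdhgc5 fell by 1.92 ± 0.54 against cortex over all tumour groups (limma adjusted p = 0.00541) and by 1.93 ± 0.68 in mCherry tumours (adjusted p = 0.0265).

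Of the other C-type genes, Pcdhac1 fell and the remaining pair did not pass. Pcdhac1 was 1.38 and 1.13 RPM in cortex and 0.0999 to 1.09 RPM in the tumours, a fall by 0.63 ± 0.21 (limma adjusted p = 0.0167) at a level of few reads that did not pass once ranges of library numbers, those in the sample titles, were fitted as a term with 2 ranges (adjusted p = 0.0915). Pcdhac2, known for axon tiling of serotonergic neurons, was 9.63 and 12.02 RPM in cortex. Over tumours it ranged from 1.46 through a median of 6.01 to 31.7 RPM (difference -0.83, 95% interval -1.68 to 0.03, adjusted p = 0.105). Pcdhgc4, known for the survival of cortical interneurons, was 6.53 and 5.80 RPM in cortex and 1.202 to 10.1 RPM in tumours, with a median of 4.55 (difference -0.50, interval -1.39 to 0.39). The remaining gamma gene to fall was the gamma-A gene Pcdhga12, at 6.88 and 5.66 RPM in cortex, by 0.96 ± 0.38 (limma adjusted p = 0.0408), and it did not pass without either cortex library, in DESeq2, with a pseudocount of 0.1 RPM or once 2 number ranges were fitted.

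**Figure D2:**
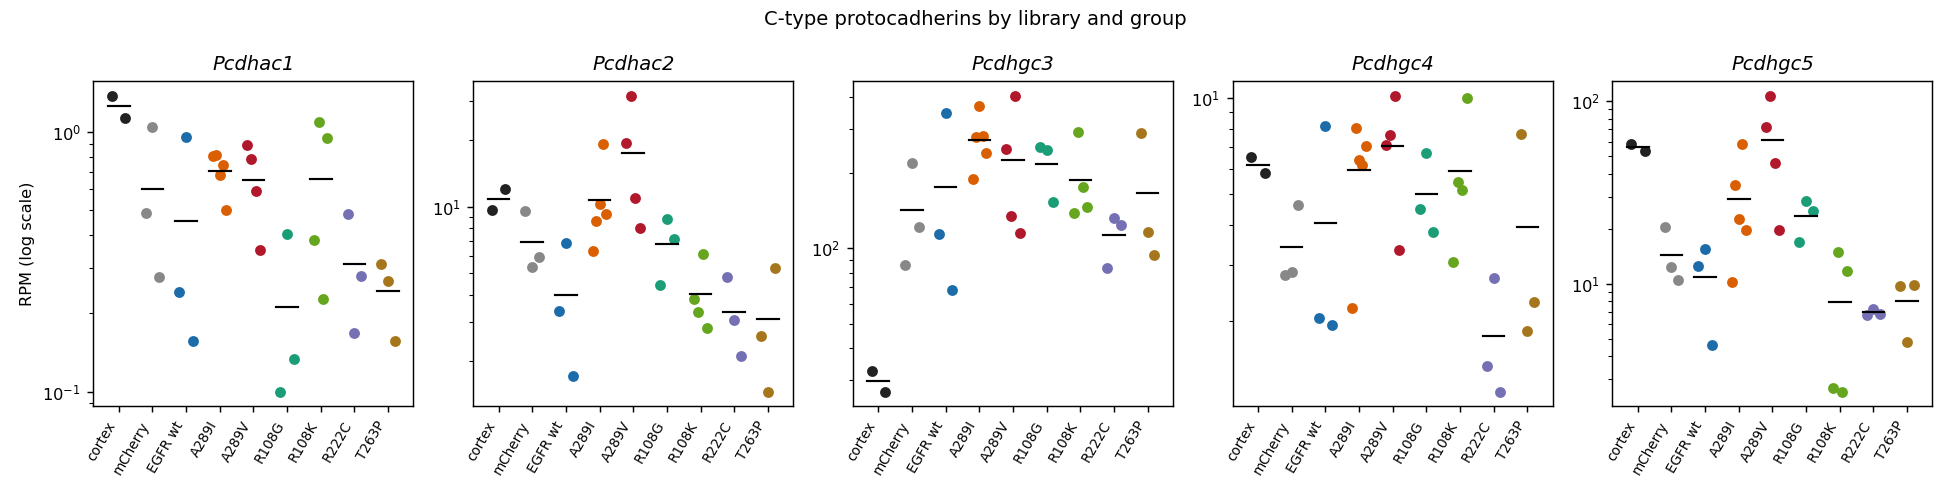
RPM of the 5 C-type members in each library (points; logarithmic axis) by group, with the group mean as a bar. Pcdhgc3 is at 26.9 to 32.3 RPM in cortex and 68.1 to 406 RPM in tumours, while Pcdhgc5 is at 53.3 to 58.3 RPM in cortex and above that in 3 tumours.

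Across the whole family 13 of the 54 tested members differed between tumours and cortex, 5 higher and 8 lower, where 47.4% of all genes tested passed (22.9% higher and 24.5% lower). The members' share, 24.1%, was thus below that of all genes. Their median difference was -0.30 against 0.03 over all genes. By cluster, 0 of 11 alpha genes rose and 4 fell, 4 of 21 beta genes rose and 2 fell, and 1 of 22 gamma genes rose and 2 fell. Both cortex libraries lay below all 28 tumours for 3 members, Pcdhgc3, Pcdhb6 and Pcdhb10, where 16% of all genes did, and above all tumours for 1, Pcdhac1, where 14.8% did. The calls rested on both cortex libraries: without cortex 1 there were 5 (Pcdha12, Pcdhb2, Pcdhb6, Pcdhb10, Pcdhgc3) and without cortex 2 there were 4, the same genes but for Pcdhb2. With the neuron list mean as a covariate 1 member passed, Pcdhb20, of 1834 genes among 15799. Cortex and tumours did not overlap in that mean. With 5 RPM as the filter Pcdha10, Pcdha11, Pcdha12, Pcdhac1 and Pcdhb13 were not tested, and the other 8 calls still passed.

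**Figure D3:**
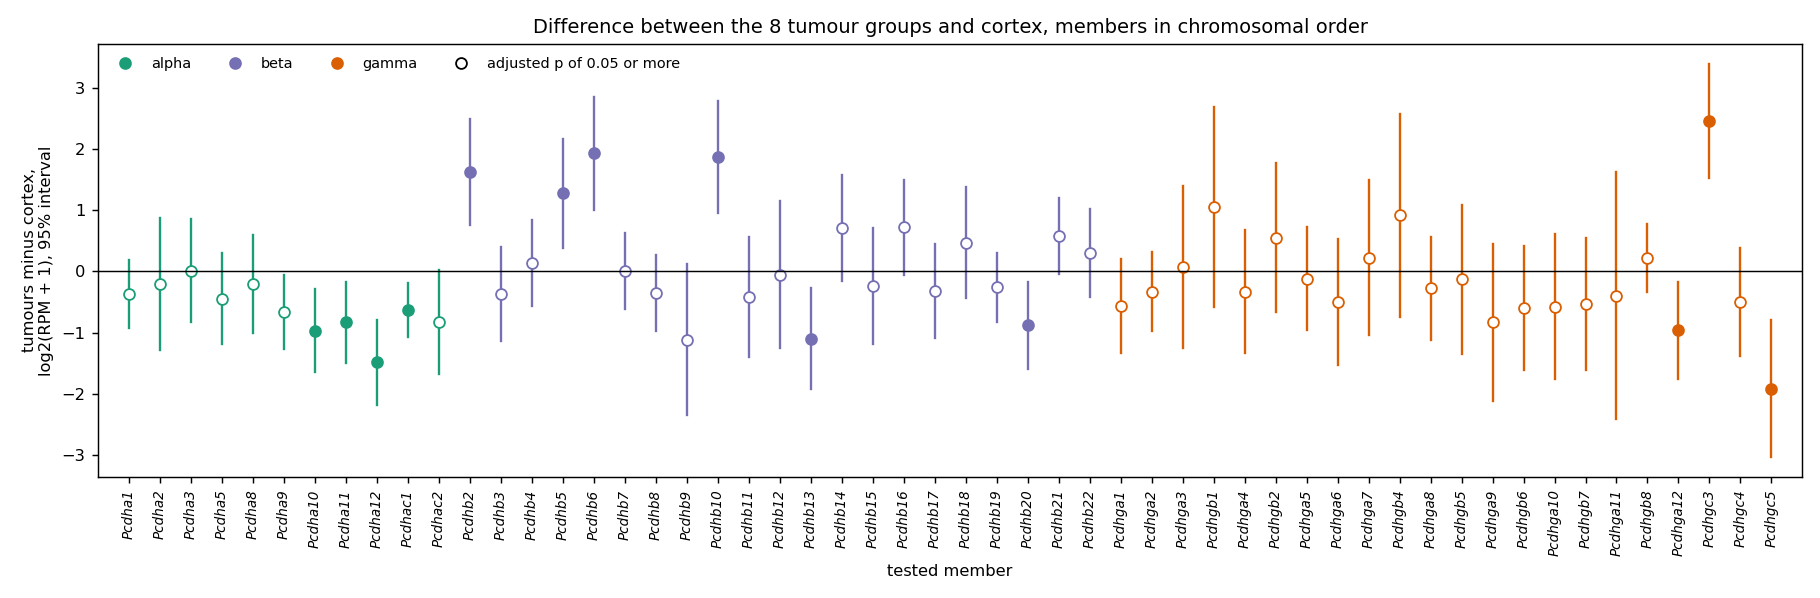
Difference in log2(RPM + 1) between the mean of the 8 tumour groups and cortex, with its 95% interval, for the 54 tested members in chromosomal order. Filled points passed (5 higher, 8 lower), among them Pcdhgc3 at 2.46, Pcdhb6 at 1.93 and Pcdhgc5 at -1.92.

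The beta genes, single-exon receptors that lack the constant cytoplasmic part of the other clusters, gave 4 of the 5 rises. Pcdhb10 was 4.64 and 4.95 RPM in cortex, and 6.64 at the lowest, 22.2 at the median and 50.3 RPM at the highest over the tumours (1.87 ± 0.45, limma adjusted p = 0.0014). Pcdhb6 was 1.72 and 0.99 RPM in cortex and ran from 2.67 through 7.42 to 22.1 RPM in tumours (1.93 ± 0.45, adjusted p = 0.00101). Pcdhb2 was 3.27 and 2.40 RPM in cortex, with a tumour median of 11.7 RPM (1.63 ± 0.42, adjusted p = 0.00271). Its only tumour not above both cortex libraries was mCherry library 2, at 2.52 RPM. Pcdhb5, 8.77 and 7.64 RPM in cortex, reached 47.6 RPM in A289I library 3 and was below cortex in EGFR wild-type library 1 alone, at 7.10 RPM (1.28 ± 0.43, adjusted p = 0.0176).

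Of the 21 beta genes 11 had a difference above 0 and 10 below, and 2 fell. Pcdhb13 was 4.99 and 7.07 RPM in cortex and fell by 1.10 ± 0.40 (limma adjusted p = 0.0256) to a tumour median of 2.18 RPM, and Pcdhb20 fell by 0.88 ± 0.34 (adjusted p = 0.0368). Fitting 2 or 3 number ranges ended the call of Pcdhb20 (adjusted p = 0.115 and 0.191). Pcdhb9 and Pcdhb3, the beta genes of highest level in cortex at 19.2 ± 1.32 and 16.7 ± 0.553 RPM (SD, n = 2), did not pass. Pcdhb3 kept a tumour median of 12.7 RPM. Pcdhb9 spread from 1.48 RPM in R222C library 3 to 33.7 RPM in mCherry library 2, with a difference of -1.11 and an interval from -2.34 to 0.11. The summed beta level was 141 and 137 RPM in cortex and lay above both in 21 of 28 tumours and below both in 7, with a median of 186 RPM. The top beta gene was Pcdhb9 in both cortex libraries and Pcdhb5 in 15 and Pcdhb10 in 8 of the tumours.

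The alpha genes without the C-types were low everywhere, and their sum was lower in most tumours. It was 19.4 and 16.4 RPM in cortex. In tumours the sum was 2.85 at the lowest and 9.18 RPM at the median, below both cortex libraries in 26 of 28. The exceptions were A289V libraries 1 and 2, at 24.2 and 37.5 RPM. Pcdha12 was 4.99 and 3.68 RPM in cortex and had a tumour median of 0.615 RPM (fell by 1.49 ± 0.34, limma adjusted p = 0.000849), and it fell by 1.53 ± 0.42 in mCherry tumours (adjusted p = 0.00613). Pcdha10 was 2.92 and 4.10 RPM in cortex with a tumour median of 1.22 RPM (fell by 0.97 ± 0.33, adjusted p = 0.0176). When 2 or 3 ranges of library numbers were fitted as a term that difference was -0.54 and no longer passed, with adjusted p = 0.182 and 0.237. All cortex libraries fell in the range from 20 to 37. Pcdha11 also fell, by 0.83 ± 0.32 (adjusted p = 0.0341), but did not pass with these terms (adjusted p = 0.0654 and 0.0870) or in DESeq2. Pcdha3, second to Pcdhac2 among alpha genes in RPM per kb over the tumours, was 2.41 and 1.13 RPM in cortex. In tumours it ran from 0.399 to 5.15 RPM and reached that top in EGFR wild-type library 2, at 43 reads. It lay below both cortex libraries in 9 of 28 tumours and above both in 7.

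In mCherry tumours against cortex 5 of 54 members passed, where 38.3% of all genes did: Pcdhgc3, Pcdhb10 (by 1.98 ± 0.56) and Pcdhb6 (by 1.60 ± 0.56) rose, and Pcdhgc5 and Pcdha12 fell (limma adjusted p from 0.00503 to 0.0265). The groups did not overlap for these 5 and for 19 members in all, where 66.5% of all genes tested did not overlap. Fitting 2 number ranges ended the calls of Pcdhb6 (1.27, adjusted p = 0.110) and Pcdhgc5 (-1.75, adjusted p = 0.0803). A term for 3 ranges ended that of Pcdhgc3 (1.49, adjusted p = 0.132). Pcdhb6 did not pass without mCherry library 1 or 3, nor Pcdhgc5 without mCherry library 2 or 3. Of 15 alternatives each, 7 ended the call of Pcdhb6 and 6 that of Pcdhgc5. Without cortex 1 only Pcdhgc3 passed, without cortex 2 only Pcdha12 and Pcdhb10, and with the neuron list mean as a covariate none did, with 1 member at an unadjusted p under 0.05.

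No member was past the threshold when all 7 receptor groups were set against mCherry tumours. Of 54 members 0 passed in limma, edgeR and DESeq2, 2 had an unadjusted p under 0.05, and 0.0379% of all genes passed. The smallest p belonged to Pcdhb4 (means 3.11 and 5.70 RPM, difference -0.75, interval -1.33 to -0.16, adjusted p = 0.594) and Pcdha10 (1.501 and 2.86 RPM, difference -0.68, interval -1.25 to -0.12, adjusted p = 0.624). For Pcdhgc3 the difference was 0.39 with an interval from -0.39 to 1.17, and for Pcdhgc5 0.02 with an interval from -0.92 to 0.95.

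Single receptor groups share the 3 mCherry tumours as controls, so their values are given side by side. Against mCherry 0 members passed in limma with wild-type EGFR (0% of all genes, 4 members at an unadjusted p under 0.05), A289I (0.607%, of which 0.525% higher and 0.0822% lower, 5 members), R108G (0.0379%, 1), R108K (0.0695%, of which 0.0506% higher and 0.019% lower, 1), R222C (0%, 10) and T263P (0.00632%, 7). edgeR made no call in these 6 either. DESeq2 called Pcdhb4 lower with wild-type EGFR, Pcdha10 and Pcdhb9 lower in R222C, and Pcdha10 and Pcdhb4 lower in T263P. The limma difference of Pcdha10 was -1.29 with wild-type EGFR, -1.24 in R222C and -1.35 in T263P, and that of Pcdhb9 in R222C was -2.34 (adjusted p = 0.346), where the 3 libraries had 1.93, 3.57 and 1.48 RPM against 21.6, 33.7 and 4.47 in mCherry tumours.

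In A289I tumours the smallest p were those of Pcdhb22, at 13.4, 6.54, 15.9, 7.53 and 5.08 RPM against 3.04, 3.35 and 5.02 in mCherry tumours (1.07 ± 0.35, limma adjusted p = 0.196), and of Pcdhb21 (0.88 ± 0.30, adjusted p = 0.221). In R108G the smallest was Pcdhga8 (1.01 ± 0.46, adjusted p = 0.568), and in R108K Pcdhga12 (-0.94 ± 0.40, adjusted p = 0.426).

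In A289V tumours 1 of 54 members passed against mCherry, where 4.91% of all genes did (3.23% higher and 1.68% lower). Pcdha12 rose by 1.47 ± 0.35 (limma adjusted p = 0.0332), with 4.98, 8.85, 2.89 and 1.94 RPM in A289V libraries 1 to 4 against 1.46, 0.494 and 0.687 in mCherry tumours. Without A289V libraries 1 and 2 it did not pass (difference 0.88, adjusted p = 0.655), nor with the neuron list mean as a covariate (0.77, adjusted p = 0.455), and over all 17 alternatives 11 ended the call, at adjusted p from 0.00799 to 0.655. The A289V libraries summed to 4934 to 16416 RPM of neuron markers against 1501 to 5101 in mCherry tumours, and 4 of the 25 markers rose, with 4 of 16 myelinating oligodendrocyte and 2 of 14 astrocyte markers. The part of these cell types in the rise of Pcdha12 was not tested beyond the neuron covariate. edgeR also made 1 call, but of Pcdhgb2, and DESeq2 called Pcdha12, Pcdhgb2 and Pcdhgc5. In limma Pcdhgc5 (1.82 ± 0.57, adjusted p = 0.0567) and Pcdhgb2 (1.88 ± 0.62, adjusted p = 0.0667) did not pass.

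Forms of the receptor were also set against each other. The 6 single-change forms against wild-type EGFR gave 0 members (0% of all genes, 7 members at an unadjusted p under 0.05, 0 in edgeR, and Pcdhgb2 in DESeq2). Pcdhgb7 had the smallest p, with means of 6.30 and 1.91 RPM (1.49 ± 0.44, limma adjusted p = 0.37), and Pcdha1 followed with 0.494 and 1.40 RPM (-0.75 ± 0.23, adjusted p = 0.384). A289I against A289V gave 0 members in the 3 tools (0% of all genes, 5 at an unadjusted p under 0.05), with Pcdha10 lowest in p (1.78 and 4.72 RPM, -1.06 ± 0.30, adjusted p = 0.113). R108G against R108K also gave 0 in the 3 tools (0% of all genes, 5 at an unadjusted p under 0.05). There Pcdhga12 had the smallest p (1.25 ± 0.40, limma adjusted p = 0.348). Pcdhgc5 followed, at 16.9 to 28.5 against 2.57 to 14.8 RPM (1.74 ± 0.57, adjusted p = 0.358).

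A test for any difference among the 8 tumour groups passed 10 of 54 members, or 18.5%, where 10.3% of all genes passed. They were Pcdha10, Pcdha12 and the C-type Pcdhac2 in the alpha cluster, Pcdhb4, Pcdhb8 and Pcdhb19 in the beta cluster, and Pcdhgb2, Pcdhga8, Pcdhga12 and Pcdhgc5 in the gamma cluster (limma adjusted p from 0.00603 to 0.0487). None of the 10 passed without A289V libraries 1 and 2, when 2 of 15715 genes did and 19 members had an unadjusted p under 0.05. Without A289V library 1 alone 5 passed, and likewise 5 without A289V library 2. With the neuron list mean as a covariate Pcdhb4 alone passed, among 5 of 15799 genes.

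Pcdha12 led the test (limma adjusted p = 0.00603). Beside the values above, it was 0.602, 0.360 and 0.468 RPM in EGFR wild-type, 1.13, 2.71, 1.14, 4.24 and 1.69 in A289I, and 0.350, 2.11 and 1.07 in R108G tumours. It was lowest in R108K (0, 0.466, 0.226 and 0.189 RPM), R222C (0.241, 0.279 and 0.0925) and T263P tumours (0.124, 0.266 and 0.627). The A289V tumours were high, and those of the last 3 groups lay below every A289I and A289V tumour. Pcdha10 (adjusted p = 0.00895) was 6.58, 5.50, 3.54 and 3.26 RPM in A289V and 3.16, 4.66 and 0.756 RPM in mCherry tumours. It was 0.842 RPM or less in the EGFR wild-type, R222C and T263P tumours, while A289I, R108G and R108K tumours lay between 0.500 and 3.41 RPM.

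Pcdhb4 followed a different order of groups (limma adjusted p = 0.0098). It was highest in A289I tumours, at 17.4, 5.03, 9.10, 4.88 and 5.48 RPM, and lowest with wild-type EGFR, at 0.963, 1.198 and 0.935 RPM. mCherry tumours had 2.92, 10.5 and 3.71 RPM and A289V tumours 4.98, 3.74, 3.89 and 2.64. The wild-type EGFR tumours lay below every other tumour, and R222C (1.62 to 1.93 RPM), T263P (1.25 to 1.73), R108G (2.31 to 2.798) and R108K (1.53 to 3.96) followed. A289I and R108G libraries all carry numbers above 37, so group and number range cannot be told apart there. A term for numbers above 37 rests on the mCherry group alone, so it cannot separate them. The call held with a term for 2 or 3 ranges. It did not hold without A289V libraries 1 and 2 (adjusted p = 0.071), where fewer genes passed throughout.

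The other passing genes reached their highest levels in A289V or R108G tumours. Pcdhac2 was highest in A289V libraries 1 and 2, at 19.4 and 31.7 RPM, and in A289I library 4, at 19.2. The same 3 tumours led for Pcdhgc5. Pcdhga12 reached 9.07 and 9.63 RPM in A289V libraries 1 and 2 and 0.383 to 2.02 RPM in R108K tumours. It did not pass once 2 or 3 number ranges were fitted (limma adjusted p = 0.0687 and 0.0536). Pcdhga8 peaked in R108G library 1, at 8.39 RPM, and its call was lost in 29 of 39 alternatives, both terms for number ranges among them. Pcdhb19 was highest in A289V tumours, at 4.27, 5.70, 8.25 and 7.39 RPM, and Pcdhb8 ran from 0.482 RPM in R222C library 1 to 4.91 RPM in A289V library 2. For Pcdhgb2 2 of the 4 A289V tumours stood far out, at 52.1 RPM in library 1 and 68.2 RPM in library 3, against 7.86 and 4.75 RPM in the other two and 1.01 to 17.0 RPM in all other tumours. With a term for 2 ranges it did not pass (adjusted p = 0.0545).

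**Figure D4:**
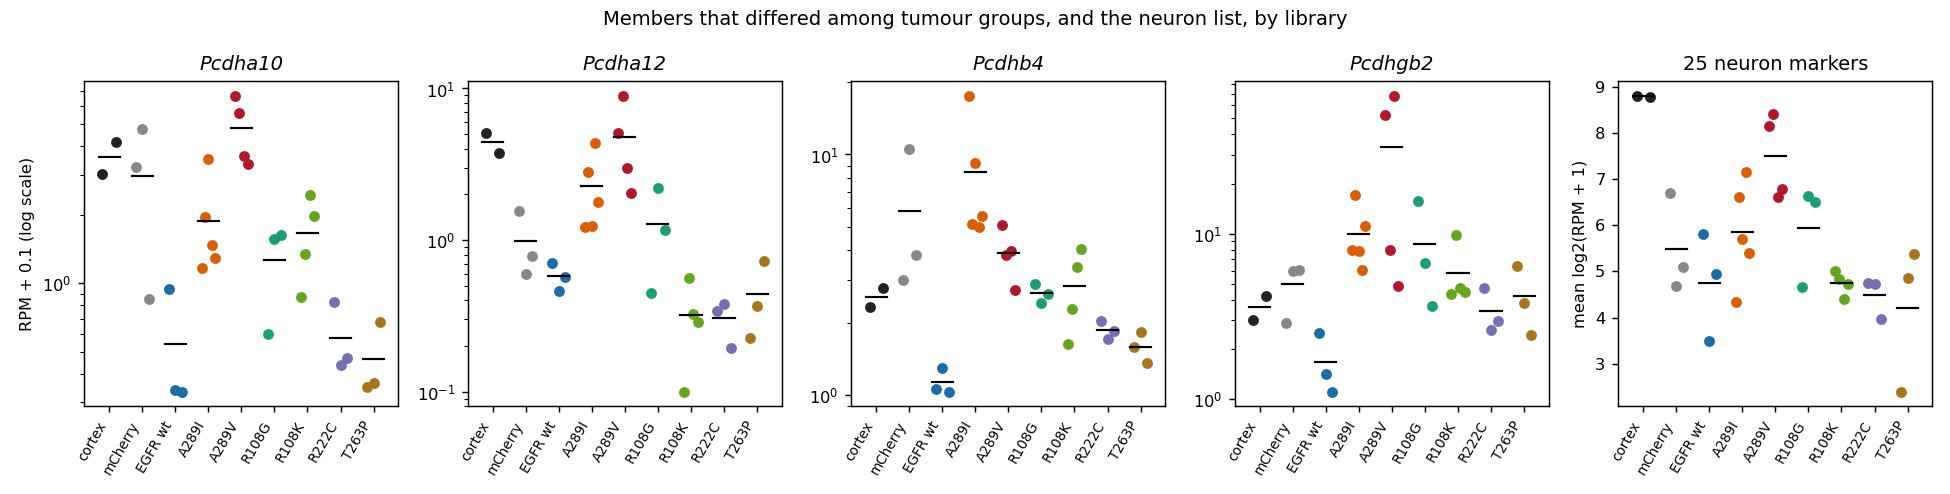
RPM + 0.1 (logarithmic axis) of 4 members that differed among tumour groups, and the mean log2(RPM + 1) of 25 neuron markers, in each library by group with the group mean as a bar. Among the tumours Pcdha12 and the neuron list are highest in A289V libraries 1 and 2, Pcdhb4 in A289I library 1 at 17.4 RPM, and Pcdhgb2 in A289V libraries 1 and 3.

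Within groups, the gamma-A and gamma-B genes varied most on the log2(RPM + 1) scale. The residual SD of log2(RPM + 1) around the group means had a median of 0.58 over the 54 members and 0.43 over all genes tested. It was 0.46 for alpha, 0.55 for beta, 0.70 for gamma-A, 0.85 for gamma-B and 0.60 for C-type genes. These sets of genes were not matched for level, and counting error adds to the spread of genes with few reads. Adding 1 RPM narrows the spread of genes near or below that level. The tested alpha genes outside the C-types had tumour medians from 0.372 to 1.69 RPM, so their lower value cannot be set against the others. Of the members 8, or 14.8%, were among the tenth of all genes with the highest residual SD, 4 of 12 gamma-A, 3 of 7 gamma-B and 1 beta gene. Pcdhga11, named here after its values were seen, had the highest residual SD of the family at 1.44, and ran from 0.377 RPM in 1 tumour to 38.1 RPM in R108G library 2.

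Single tumours carried the extremes. Pcdhgb5 was 29 RPM in EGFR wild-type library 2 (242 reads, 95% Poisson interval 25.5 to 32.9 RPM), 14.01 times the tumour median of 2.07 RPM, and 7.94 RPM in the next tumour. The other 2 EGFR wild-type tumours had 2.17 and 1.48 RPM. Pcdhga9 was 21.7 RPM in R222C library 2 (388 reads, 19.6 to 23.9 RPM), and 0.723 and 0.462 RPM in the other 2 R222C tumours. Both genes were picked for their large ratio of highest to median tumour, so a gap wider than counting error is no test. The highest tumour was 14.4 times the median for Pcdha12 (A289V library 2, 45 reads, interval 6.45 to 11.8 RPM), 12.8 times for Pcdhgb2 and 7.82 times for Pcdhgc5. Intervals cover counting error only.

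The share of reads from the leading gene was also uneven. In both cortex libraries Pcdhga11 was the top gamma-A or gamma-B gene, with 10.9% and 11.1% of the reads of the 19 genes. Among tumours the top gene held 10.8% at the lowest, 21.4% at the median and 44.5% at the highest, above 20% in 17 of 28 and above 30% in 7. Pcdhgb1 and Pcdhga11 were each on top in 9 tumours, and 6 other genes in the rest. Pcdhgb1 alone held 44.5% in mCherry library 3 (95% Wilson interval in the plot of shares), 44.1% in T263P library 2, 39.6% in R222C library 2 and 37.4% in A289V library 4, and Pcdhgb2 held 40.0% in A289V library 3. The inverse of the summed squared shares, which would be 19 if all these genes were equal, was 14.6 and 14.8 in cortex and 3.65 to 14.6 in tumours, below both cortex libraries in 27 of 28. For the beta genes it was 13.6 and 13.3 in cortex and 9.48 to 16.5 in tumours, with 13 of 28 at or above the lower cortex value. The summed gamma-A and gamma-B level itself was 78.6 and 76.5 RPM in cortex and 41.1 to 178 RPM in tumours, above both in 15 and below both in 13.

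**Figure D5:**
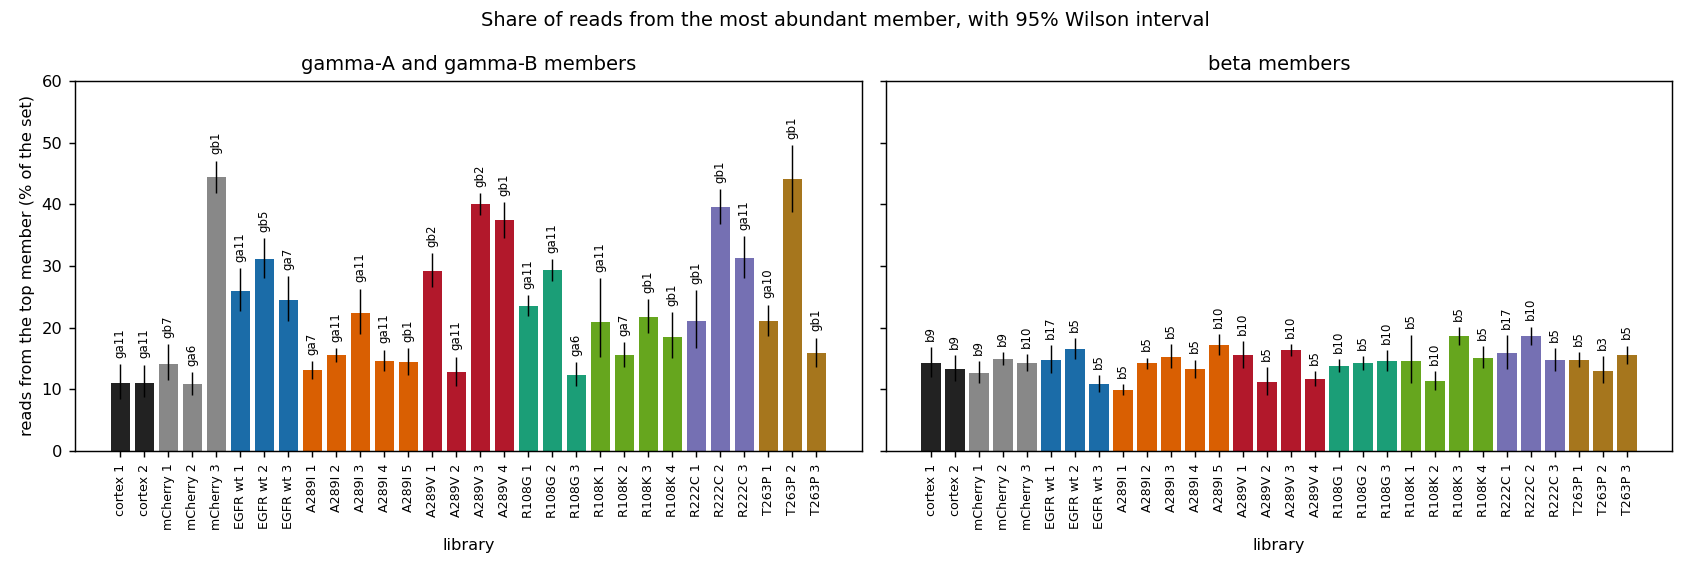
Percent of the reads of the 19 gamma-A and gamma-B genes (left) and of the 22 beta genes (right) that came from the most abundant one in each library, with its 95% Wilson interval and its name without the Pcdh prefix. Cortex is at 10.9% and 11.1% on the left, tumours reach 44.5%, and no bar on the right exceeds 18.6%.

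Genes around the family were read in the same fits. Of 25 tested regulators of promoter choice and chromatin 14 rose and 0 fell in tumours against cortex, where 22.9% of all genes rose and 24.5% fell. Among them Uhrf1 had the smallest p and went from 1.19 to 78.8 RPM (5.07 ± 0.43). Rest, a repressor of neuronal genes, went from 1.03 to 10.1 RPM (2.40 ± 0.31) and Nipbl, the cohesin loader, from 35.3 to 87.4 RPM (1.26 ± 0.21). Of 22 partners, cleavage and signalling genes 4 rose and 6 fell, and of 12 non-clustered protocadherins 2 rose and 4 fell, both shares near the 47.4% of all genes that passed. Pcdh15 rose by 2.45 ± 0.42, while Pcdh9 fell by 1.29 ± 0.27 and Pcdh19 by 1.89 ± 0.39. Of 24 other cadherins 3 rose and 6 fell, with Dchs1, a large planar polarity cadherin, up by 2.57 ± 0.33 and Celsr3 down by 2.29 ± 0.41. None of these 4 lists had a member that passed in receptor tumours against mCherry.

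Of 17 tested neighbours of the clusters 1 rose and 4 fell against cortex, fewer than the 47.4% of all genes, with a median difference of -0.22, and 0 passed in receptor tumours against mCherry. Taf7, a subunit of the general transcription factor TFIID that lies between the beta and gamma clusters, was 15.13 and 14.99 RPM in cortex and 5.87 to 21.5 RPM in tumours. Slc25a2, beside it, was at 0.226 RPM or less in every library.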

How the data were processed

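Polyadenylated RNA had been sequenced from stranded libraries, per the labels' protocols. The submitters' processing notes name FastQC, STAR 2.5.0a, DESeq2 1.20.0 and mm10 without roles. The deposited values, named RPM by the authors, are a normalised signal: undoing a single factor in each library left 99.9959% or more of its values within 0.05 of an integer number of reads. These are therefore counts over a size factor, and all were scaled by the same constant, 10.2638, which set the average library total to that of RPM, where the design had assumed true RPM. No pair of libraries in a group agreed within sampling noise. Gene positions came from RefSeq (GRCm38.p6) and first exons from GENCODE M21, both of the mm10 build.

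On log2(RPM + 1), limma 3.58.1 (trend, robust) in R 4.3.3 fitted 9 group means to 30 libraries and to 15824 genes (filter: 1 RPM or more in 3 libraries or more), two-sided. Comparisons of several groups weight groups equally. The fit was also run on simulated counts with planted changes. These hold no difference in cell types between libraries, and no result here rests on them. Alternatives were edgeR 4.0.16 and DESeq2 1.42.0 on recovered reads, other pseudocounts, filters and scaling, number ranges, a neuron covariate, a fit to the compared groups alone, and omission of every library in turn. The term for numbers above 37 rests on the mCherry group, the only one with libraries on both sides of that bound. Leaving out A289V libraries 1 and 2 together was chosen after seeing the data.

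The members and lists were chosen with earlier results of these data known. Genes were named by rule: the 4 largest passing rises and falls per comparison or the 2 of smallest p, the highest levels per cluster, the 5 largest ratios of highest to median tumour, the C-type genes, Pcdhb4 and Pcdha12. The test among groups has no direction, so its passing genes are named. Others were named after their values were seen. Python 3.11.15, pandas 2.3.3, scipy 1.17.1 and matplotlib 3.10.9 were used for summaries.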

Additional observations from a re-analysis of the deposited data

Results flagged for a closer look

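In groups of 4 or 5 libraries, 76 sets of values of 27 named members were searched for a library far from the rest of its group (Dixon's gap on log2(RPM + 1)). Chance alone marks about 1 in 20 such sets, and 2 were marked. Pcdhgb2 was 9.78 RPM in R108K library 2 and 4.22 to 4.604 RPM in the other R108K tumours. Pcdhgc4 was 2.20 RPM in A289I library 1 and 6.16 to 8.01 RPM in the other A289I tumours.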

How the results depend on the processing

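The counts of passing members were recomputed 323 times for 14 comparisons, and 291 stayed within 1.5 times the main count. For tumours against cortex (main count 13) a filter of 5 RPM gave 8, the neuron covariate 1, and leaving out single libraries 4 to 14. For mCherry against cortex (5) the neuron covariate gave 0 and single libraries left out 1 to 5. For A289V against mCherry (1) DESeq2 gave 3, and a count of 0 came from a filter of 5 RPM, the neuron covariate, only the groups compared, a pseudocount of 0.1 RPM, a term for 2 or 3 number ranges, and A289V libraries 1 and 2 left out, while single libraries left out gave 0 to 5. For any difference among tumour groups (10) DESeq2 gave 23, a filter of 5 RPM 6, the neuron covariate 1, A289V libraries 1 and 2 left out 0, and single libraries left out 5 to 12. DESeq2 gave 1 for wild-type EGFR against mCherry, 2 for R222C, 2 for T263P and 1 for variants against wild-type EGFR, each with a main count of 0. The filter of 5 RPM left genes untested that reached it in too few libraries. For tumours against cortex these included Pcdha10, Pcdha11, Pcdha12, Pcdhac1 and Pcdhb13, and the other 8 calls still passed. For A289V they included Pcdha12, and among tumour groups Pcdha10, Pcdha12 and Pcdhb8. The cause of the other shifts was not tested. For the 29 calls on single members, 854 of 993 recomputed values stayed past the threshold in the same direction, where the test has one. Another 138 did not pass, and 1 reversed: Pcdhga12 against cortex went to 0.17 (adjusted p = 0.845) with the neuron covariate, and the cause was not tested.

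No paired analysis was possible because the libraries' numbers are not shared between groups. Precision is limited by depth for the alpha genes, which without the C-types held 12 reads in all in R108K library 1, and by 2 cortex libraries for every comparison with cortex.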
